A study of Mus musculus with 16 samples.

Results

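The genes of de novo lipogenesis, the route that builds fatty acids from cytosolic acetyl-CoA, were followed in brown adipose tissue (BAT) of mice on a high-fat diet, with and without Gdf15 in thermogenic adipocytes. The 10 genes were chosen by function, at a time when earlier results of these data were known: the enzymes Acly, Acaca, Acacb, Fasn, Scd1, Scd2, Elovl6 and Me1, and the transcription factor genes Srebf1 and Mlxipl. All 10 were present among the 49066 genes of the table, and all 10 passed the filter on low values, a mean level of 1 or more in TPM (a transcript's share of the library, corrected for its length), as did 12210 genes in all. BAT of 16 C57BL6/J mice was sequenced in bulk, from 4 WT and 4 KO mice of each sex. All of them carried 2 floxed Gdf15 alleles (Gdf15 fl/fl). The KO mice (GDF15 BKO) also carried the Tg(Ucp1-cre)1Evdr transgene, and the WT mice lacked Cre. All had eaten a high-fat diet (HFD, 60% of its calories from fat) for 12 weeks from 6 weeks of age and were 18 weeks old. Because the Ucp1 promoter drives Cre, cells of BAT that do not use that promoter keep Gdf15. The feeding state of the mice when BAT was collected, on which this pathway is known to depend, was not given in the sources used here. Nor was their housing temperature at that time, on which lipogenesis in BAT also depends: the study kept mice at room temperature unless stated otherwise and moved those on the diet to warmer cages for calorimetry near its end.

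Lipogenesis starts with citrate exported from mitochondria. ATP-citrate lyase (Acly) cleaves it to acetyl-CoA, acetyl-CoA carboxylases (Acaca, Acacb) make malonyl-CoA from it, and fatty acid synthase (Fasn) builds palmitate with NADPH that malic enzyme (Me1) helps to supply. Elovl6 lengthens palmitate and the stearoyl-CoA desaturases (Scd1, Scd2) add a double bond. SREBP-1c, encoded by Srebf1 and activated by insulin, and ChREBP, encoded by Mlxipl and activated by glucose metabolites, switch these enzymes on. Brown fat is known for a strong lipogenic program that runs beside fatty acid oxidation.

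Gdf15 was low everywhere. Male WT libraries held 0.368, 0.690, 1.55 and 3.81 TPM and male KO libraries 0.0915, 0.0801, 0.255 and 0.272 TPM, without overlap. Female WT libraries held 0.0622, 0.311, 0.170 and 0.290 TPM, female KO replicate 3 held 0.0794 TPM, and Gdf15 was listed at 0 in the other 3 female KO libraries. In females the groups overlapped, since WT replicate 1 lay under KO replicate 3, and in each sex the gene lay under the TPM minimum of the fits. The first part of each library name, called the prefix here (5, 8b, 9 or 10), has no stated meaning. Prefix 5 held male WT replicates 1 and 2 and female KO replicate 2. Prefix 9 held the other 2 male WT libraries, male KO replicates 2 to 4 and female KO replicate 4. Prefix 10 held male KO replicate 1, female WT replicate 1 and female KO replicate 1, and prefix 8b the remaining female libraries. Mitochondrially encoded transcripts made up 34.5 to 59.8% of a library. In female WT replicate 4, 17.7% of the TPM lay in transcripts not matched to the annotation, against at most 0.480% in the other libraries. TPM are shares of a fixed sum and the number of reads is not known, so precision is given by the spread between mice alone, and in bulk tissue fewer cells of a type and less RNA per cell cannot be told apart.

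Most lipogenic enzyme genes had higher means in KO than in WT males and lower means in KO than in WT females, but none of them passed the adjusted test. In males all 10 members were higher in KO than in WT on the log2(TPM + 0.5) scale (Acacb not with median-of-ratios scaling or without the mitochondrial genome), with a median log2 fold change of 0.82, against 0.16 over all 12176 genes tested. In females 9 of the 10 were lower in KO (with median-of-ratios scaling Mlxipl too), with a median of -1.14, against 0.10 over all 12141 genes tested. None of the members passed the Benjamini-Hochberg adjusted threshold of 0.05 in limma in either sex, and few genes of any kind did: 0.00821% of the genes tested in males and 0% of those in females, where 2075 genes had an unadjusted p under 0.05. In males, 4 members were higher at an unadjusted p under 0.05, against 17.7% of all genes, and none was lower (1.07% of all genes). In females, 7 members were lower at that level, against 5.45% of all genes, and none was higher (11.6% of all genes). The KO and WT libraries did not overlap for 0 members in males, where 9.55% of all genes were higher without overlap and 0.673% lower. In females they did not overlap for 3 members, Acaca, Elovl6 and Me1, all lower in KO, against 3.19% of all genes lower and 4.89% higher without overlap. With protein-coding transcripts only, Me1 overlapped in females, whereas Acacb and Fasn did not. In males, Srebf1 was then higher in KO without overlap, by a narrow margin (lowest KO 56.9 TPM, highest WT 56.6 TPM). The share of all genes without overlap was not computed for these sums.

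**Figure D1:**
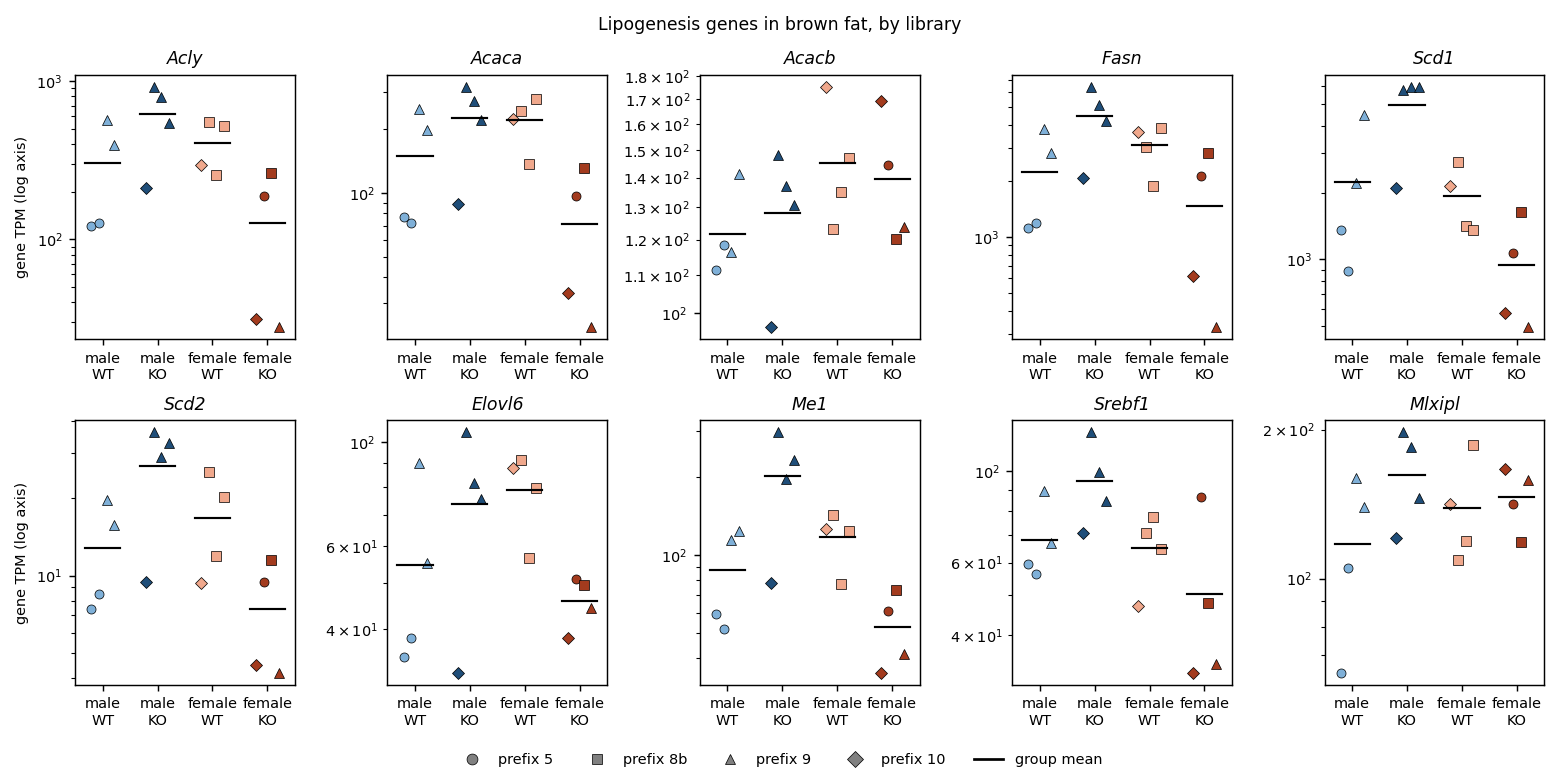
Gene TPM of the 10 members in each of the 16 libraries, on log axes, with groups on the x axis, a bar for the group mean and the marker shape for the prefix of the library name. For most enzymes the 2 male WT libraries of prefix 5 and female KO replicates 1 and 4 are the low points, and male KO replicates 2 to 4 the high ones, while Acacb stays between 96.7 and 175 TPM.

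Fasn makes palmitate in a single large polypeptide and had the highest mean TPM of the members as a sum over all transcripts. Over protein-coding transcripts alone, Scd1 had the higher mean in every group. In males the Fasn sum over all transcripts stood at 1113, 1181, 3809 and 2828 TPM in WT replicates 1 to 4. In KO replicates 1 to 4 it stood at 2073, 6457, 5141 and 4229 TPM. In females it stood at 3669.5, 3067, 1871 and 3879.8 TPM in WT and at 614, 2116, 2847 and 328 TPM in KO. The male WT mice formed a low and a high pair, the first KO mouse lay between these pairs and the other 3 KO mice lay above every WT mouse. In females, KO replicates 1 and 4 lay under every WT mouse, and KO replicates 2 and 3 lay within the WT range. The log2 fold change of KO over WT was 1.09 ± 0.48 (SE) in males (adjusted p = 0.264) and -1.52 ± 0.64 (SE) in females (adjusted p = 0.275).

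Acly supplies the acetyl-CoA and had the widest range of all members, with its highest library 32.9 times its lowest. Male WT mice had 121, 127, 566 and 391 TPM and male KO mice 211, 922, 787 and 545 TPM. Female WT mice had 293, 555, 255 and 521 TPM and female KO mice 31.3, 187, 261 and 28.0 TPM. The same pair of male WT mice and the same pair of female KO mice as for Fasn were the low ones, and both sexes overlapped between genotypes. KO over WT, Acly had a log2 fold change of 1.15 ± 0.61 (SE) in males and -2.23 ± 0.73 (SE) in females (adjusted p = 0.328 and 0.231).

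Acaca, the carboxylase that feeds malonyl-CoA to synthesis, read 76.9, 72.0, 249 and 199 TPM in male WT and 88.7, 319, 273 and 222 TPM in male KO mice. It read 225, 244, 137 and 278 TPM in female WT and 33.6, 97.0, 132 and 23.2 TPM in female KO mice. Every female KO mouse lay under every female WT mouse, though KO replicate 3 came close to WT replicate 3. The male groups overlapped, and only 2 of the 4 male KO mice exceeded the highest WT mouse. Acaca had a log2 fold change of 0.66 ± 0.51 (SE) in males and -1.92 ± 0.52 (SE) in females (adjusted p = 0.490 and 0.231).

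Me1 turns malate into pyruvate and yields NADPH. It gave 59.1, 51.8, 115 and 124 TPM in male WT and 78.2, 297, 196 and 232 TPM in male KO mice. In females it gave 126, 143, 77.2 and 124 TPM in WT and 35.2, 60.6, 73.0 and 41.5 TPM in KO mice, whose highest value lay just under the lowest WT value. In males, 3 of the 4 KO mice lay above every WT mouse. Of all members, Me1 had the smallest unadjusted p for a KO effect that differs by sex. Its log2 fold change was 1.15 ± 0.44 (SE) in males and -1.18 ± 0.27 (SE) in females (adjusted p = 0.233 and 0.231).

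The desaturase Scd1 read 1355, 886, 2197 and 4448 TPM in male WT and 2097, 5777, 5982 and 5995 TPM in male KO mice, of which 3 lay close together and KO replicate 1 lay far under them. Female WT mice had 2148, 2756, 1414 and 1361 TPM and female KO mice 572, 1069.6, 1627 and 497 TPM. Only female KO replicate 3 lay inside the WT range. The log2 fold change was 1.30 ± 0.52 (SE) in males, the largest of the members there, and -1.13 ± 0.40 (SE) in females (adjusted p = 0.240 and 0.242). Its paralog Scd2 was far less abundant, between 4.19 and 36.0 TPM, and had log2 fold changes of 0.98 ± 0.45 (SE) and -1.14 ± 0.39 (SE) (adjusted p = 0.279 and 0.237). Reads shared by the 2 paralogs would have been divided between them by the quantification.

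The elongase Elovl6 had 34.8, 38.2, 90.0 and 55.3 TPM in male WT and 32.2, 105, 81.8 and 75.4 TPM in male KO mice, with wide overlap. Female WT mice had 88.02, 91.4, 56.5 and 79.8 TPM and female KO mice 38.2, 51.0, 49.6 and 44.3 TPM. The 4 female KO mice lay close together, and all of them lay under the lowest WT mouse. Elovl6 had a log2 fold change of 0.41 ± 0.40 (SE) in males and -0.76 ± 0.18 (SE) in females (adjusted p = 0.580 and 0.231).

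**Figure D2:**
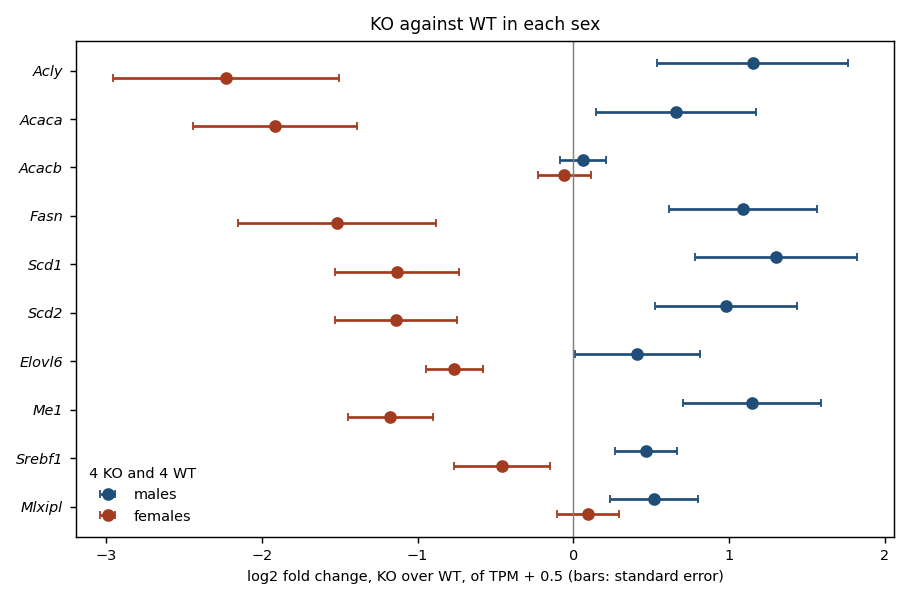
Log2 fold change of KO over WT on the log2(TPM + 0.5) scale (x axis) for each member (y axis) in males and in females, 4 KO and 4 WT mice each, with bars for the standard error. Points of both sexes lie on opposite sides of 0 for every member but Mlxipl, and those of Acacb lie near 0 in both.

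Whether the KO effect itself differed by sex, female minus male, was tested over all 16 libraries. It was below 0 for all 10 members, with a median of -2.22 on the log2 scale, against -0.06 over all 12210 genes. The difference was -3.38 ± 1.03 (SE) for Acly, -2.61 ± 0.87 (SE) for Fasn, -2.43 ± 0.70 (SE) for Scd1 and -2.32 ± 0.55 (SE) for Me1. At an unadjusted p under 0.05, 8 members lay in the lower direction, against 11.7% of all genes, and none in the higher direction (2.51% of all genes). The 2 that did not were Acacb and Mlxipl. No member passed after adjustment over all genes, with 0.216 the lowest adjusted p of a member, and 0% of all genes passed in limma, although 1735 had an unadjusted p under 0.05. Averaged over the sexes, the KO effect of the members had a median of -0.05, with 4 members above 0 and 6 below, and none passed, while 2.93% of all genes did.

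Within prefix 9 the median difference was smaller than over all males. In the prefix 9 male libraries, 2 WT and 3 KO, the members' log2 differences had a median of 0.51 and all 10 were above 0. There Fasn was 0.66 ± 0.22 (SE), Acly 0.64 ± 0.27 (SE), Acaca 0.27 ± 0.18 (SE) and Mlxipl 0.22 ± 0.15 (SE) on the log2 scale, and Me1 0.998 ± 0.18 (SE). In females, prefix 10 held 1 WT and 1 KO mouse, with a median difference of -1.51 and 9 of 10 members lower. Prefix 8b held 3 WT mice and 1 KO mouse, with a median of -0.57 and 9 of 10 lower, but Fasn differed there by 0.02 and Scd1 by -0.10. Female KO replicate 4, the lowest library for Fasn, had no female WT library of its prefix. Prefix as a covariate left the difference between the sexes at -2.33 ± 1.13 (SE) for Fasn, -3.06 ± 1.19 (SE) for Acly and -2.32 ± 0.58 (SE) for Me1 on the log2 scale. That fit takes the prefix to act alike in both sexes. Prefixes 5 and 9 each held 1 female library, a KO one, so within females the covariate left these libraries without weight in the KO effect. That estimate therefore rested on the prefix 8b and 10 libraries, with KO replicates 1 and 3. Within females, prefix as a covariate gave -1.02 ± 0.62 (SE) for Fasn, against -1.52 without it. For Acly it gave -1.69 ± 0.62 (SE) against -2.23, and for Me1 -1.09 ± 0.38 (SE) against -1.18. The part of the prefix in these results was not tested beyond these values.

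Between the sexes in WT mice, 8 of 10 members were higher in females, with a median log2 difference of 0.43 and a range from -0.07 to 0.73. None passed the adjusted threshold, which 0.0664% of all genes did, and none was free of overlap, against 0.722% of all genes higher and 1.2% lower without overlap. No prefix was shared by male and female WT libraries, so prefix and sex cannot be told apart in this comparison. In KO mice 9 of the 10 members had the higher mean in males: mean Acly was 4.86 times, Fasn 3.03 times and Scd1 5.27 times as high as in females. Acacb was the exception, with a male mean 0.919 times the female one. Male and female KO libraries overlapped for Acly and Fasn but not for Scd1. This difference between KO mice was not tested, and no share of all genes was computed for it. The prefixes were also divided differently between male and female KO libraries. Scd1 and Srebf1 already had the higher mean in males among WT mice, where the female mean was 0.864 and 0.955 times the male one.

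Acacb, the carboxylase of the mitochondrial surface whose malonyl-CoA restrains fatty acid uptake by mitochondria, was the flattest member as a gene sum. Its sum ranged from 96.7 to 175 TPM over all libraries, and its log2 fold change was 0.06 ± 0.15 (SE) in males and -0.06 ± 0.17 (SE) in females. On average 44.3% of that sum came from Acacb-204, a transcript annotated as retained intron, and 47.8% from protein-coding transcripts. TPM divide reads by transcript length, so short transcripts weigh heavily in such a sum. The protein-coding transcripts alone gave 49.5, 34.7, 55.4 and 76.8 TPM in male WT and 35.1, 86.4, 87.3 and 83.1 TPM in male KO mice. They gave 82.4, 75.2, 81.9 and 94.7 TPM in female WT and 38.6, 58.8, 45.7 and 37.1 TPM in female KO mice, without overlap. Acacb-204 read 80.8, 41.4, 46.9 and 42.6 TPM in female WT and 104, 74.4, 65.0 and 74.2 TPM in female KO mice, with overlap. With protein-coding transcripts only, the log2 fold change of Acacb in females was -0.90 ± 0.17 (SE) (adjusted p = 0.122), and in males 0.40 ± 0.32 (SE) (adjusted p = 0.46).

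The Fasn sum was also built largely from transcripts that are not protein-coding. The retained-intron transcripts Fasn-202 and Fasn-203 made up 34.4% and 24.2% of it. Protein-coding Fasn transcripts stood at 1212, 1485, 862 and 1834 TPM in female WT and at 136, 689, 807 and 86.4 TPM in female KO mice, so that the groups no longer overlapped. The log2 fold change was then -2.19 ± 0.66 (SE) in females (adjusted p = 0.163) and 1.38 ± 0.63 (SE) in males (adjusted p = 0.224). Me1 moved the other way, with 67.2% of its sum from protein-coding transcripts. These overlapped in females, where WT replicate 3 stood at 49.4 TPM and KO replicate 3 at 54.0 TPM. The sums over protein-coding transcripts were added after the values were seen.

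**Figure D3:**
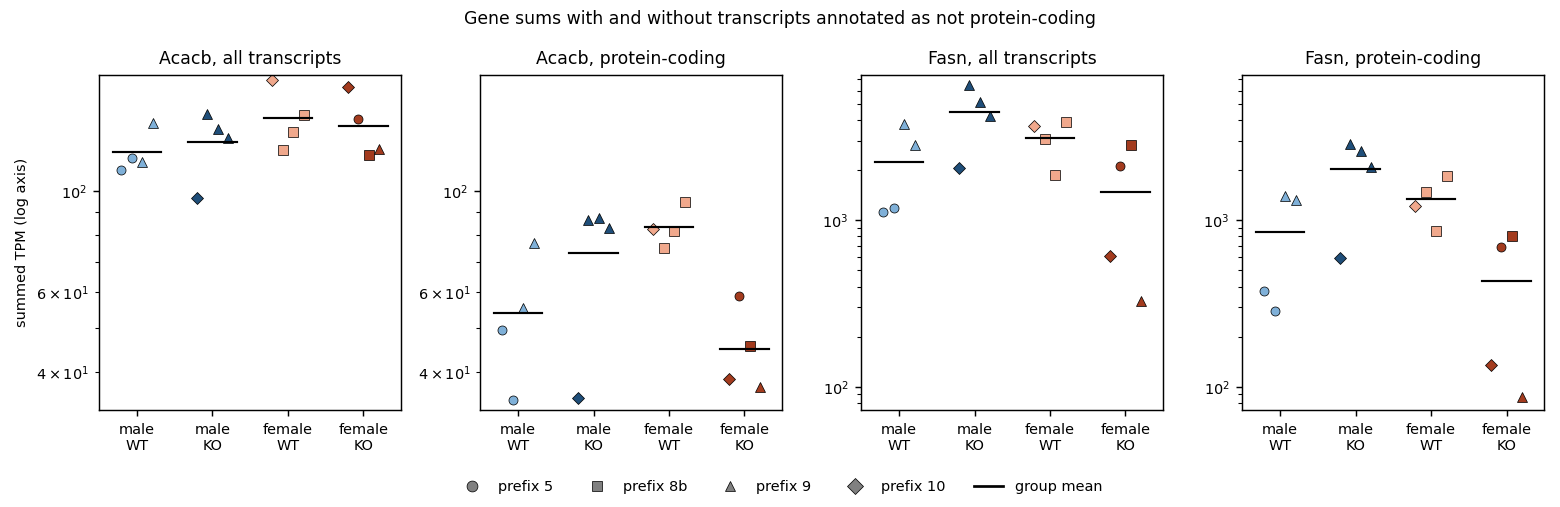
Summed TPM of Acacb and Fasn in each library over all transcripts and over protein-coding transcripts only, on log axes shared by each pair of panels, with bars for group means and marker shapes for the prefix. Female KO mice lie apart from female WT mice for both genes in the protein-coding panels, at 37.1 to 58.8 against 75.2 to 94.7 TPM for Acacb.

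Of the 2 transcription factor genes, Mlxipl had 64.5, 105, 159.9 and 139.6 TPM in male WT and 121, 198, 185 and 146 TPM in male KO mice. In females it had 142, 109, 119 and 186 TPM in WT and 167, 141, 118 and 158 TPM in KO mice, with full overlap. The log2 fold change was 0.52 ± 0.28 (SE) in males and 0.09 ± 0.20 (SE) in females (adjusted p = 0.336 and 0.812). Srebf1 had 59.5, 56.3, 89.3 and 66.9 TPM in male WT and 70.7, 124, 99.3 and 84.5 TPM in male KO mice. It had 47.1, 70.6, 77.4 and 64.7 TPM in female WT and 32.4, 86.5, 47.9 and 34.0 TPM in female KO mice, where KO replicate 2 was above and KO replicates 1 and 4 below all WT mice. Its log2 fold change was 0.47 ± 0.20 (SE) in males and -0.46 ± 0.31 (SE) in females (adjusted p = 0.259 and 0.441).

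Both genes have alternative first exons with known roles. ChREBP-alpha starts at the downstream first exon of Mlxipl, and the short, strongly active ChREBP-beta at an upstream one that ChREBP itself turns on. SREBP-1a starts at an upstream first exon of Srebf1 and SREBP-1c, the main lipogenic form in fat and liver, at a downstream one. The 250 bases before 5 annotated starts are shown. They belong to the Mlxipl and Srebf1 transcripts described below and to Fasn, the enzyme these are compared with. The bases are from RefSeq (GRCm38.p6), 5′ to 3′ on the gene's strand, and capitals mark 3 motifs searched on both strands. The E-box, which ChREBP and its relatives bind, is spelled CACGTG. The CCAAT box, bound by NF-Y, is spelled by its name. The last is a sterol response element, as letters TCACNCCAC.
Mlxipl, upstream start (chr5:135089640-135089889, + strand): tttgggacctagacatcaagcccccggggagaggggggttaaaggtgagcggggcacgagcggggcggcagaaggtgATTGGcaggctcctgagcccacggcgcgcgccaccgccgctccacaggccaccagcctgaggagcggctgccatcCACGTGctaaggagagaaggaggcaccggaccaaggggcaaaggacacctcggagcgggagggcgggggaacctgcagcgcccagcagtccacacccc
Mlxipl, downstream start (chr5:135106641-135106890, + strand): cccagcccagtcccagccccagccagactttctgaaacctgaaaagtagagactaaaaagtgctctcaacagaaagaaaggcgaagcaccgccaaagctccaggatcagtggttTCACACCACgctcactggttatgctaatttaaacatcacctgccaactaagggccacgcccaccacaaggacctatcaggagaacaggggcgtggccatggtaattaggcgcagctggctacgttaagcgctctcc
Srebf1, middle start (chr11:60220628-60220877, - strand): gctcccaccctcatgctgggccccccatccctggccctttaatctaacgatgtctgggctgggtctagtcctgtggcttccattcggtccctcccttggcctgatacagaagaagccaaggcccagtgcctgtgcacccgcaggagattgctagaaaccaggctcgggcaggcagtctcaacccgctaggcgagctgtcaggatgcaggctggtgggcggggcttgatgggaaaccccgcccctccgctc
Srebf1, downstream start (chr11:60210472-60210721, - strand): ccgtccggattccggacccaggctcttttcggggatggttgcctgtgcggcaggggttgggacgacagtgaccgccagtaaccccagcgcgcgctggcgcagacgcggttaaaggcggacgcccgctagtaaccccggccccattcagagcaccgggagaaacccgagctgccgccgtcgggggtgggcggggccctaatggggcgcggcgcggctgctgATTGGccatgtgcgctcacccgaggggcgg
Fasn (chr11:120824548-120824797, - strand): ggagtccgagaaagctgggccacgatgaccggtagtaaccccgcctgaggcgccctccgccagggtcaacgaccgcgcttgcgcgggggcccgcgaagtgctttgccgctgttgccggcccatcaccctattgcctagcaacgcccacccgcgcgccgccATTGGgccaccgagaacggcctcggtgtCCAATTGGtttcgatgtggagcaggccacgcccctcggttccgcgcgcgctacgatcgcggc

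Of the members, 8 matched RefSeq by symbol, with 12 promoters, and Scd1 and Scd2 had no entry. The E-box was in 1 of the 12, the upstream Mlxipl start, where it ended 92 bases before the start, and in 6.02% of all 32851 promoters of this length. The sterol response element letters were in 1 of the 12, the downstream Mlxipl start, and in 1.05% of all. CCAAT was in 6 of the 12 and in 33.8% of all, and the Fasn promoter held it 3 times, of which 2 overlapped. Srebf1 has 3 RefSeq starts, of which the middle one, where Srebf1-201 begins, and the downstream one are shown. The downstream start held CCAAT, 25 bases before it, the middle start held none of the 3 motifs, and the most upstream start, not shown, held CCAAT 161 bases before it. These matches describe letters and not binding.

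Mlxipl-210 (ENSMUST00000202431), annotated as a processed transcript, starts at the base of the upstream RefSeq start, 17028 bases upstream of the leading transcript Mlxipl-201 (ENSMUST00000005507). Mlxipl-210 had 0.157, 0.180, 6.17 and 2.37 TPM in male WT and 2.55, 7.69, 7.14 and 5.90 TPM in male KO mice. In females it had 2.33, 2.23, 1.89 and 9.13 TPM in WT and 0.121, 0.638, 2.62 and 0.337 TPM in KO mice. The low libraries were again the male WT pair of prefix 5 and 3 of the 4 female KO mice, and both sexes overlapped between genotypes. The transcript made up 2.28% of the Mlxipl sum, to which it therefore added little. Mlxipl-201 ranged less, with 29.0, 39.2, 27.5 and 42.2 TPM in female WT and 27.9, 29.0, 25.5 and 21.9 TPM in female KO mice.

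Srebf1-207 (ENSMUST00000144942) starts within 6 bases of the downstream RefSeq start, 10139 bases downstream of the leading transcript Srebf1-201 (ENSMUST00000020846). It had 7.78, 1.43, 8.70 and 12.4 TPM in male WT and 6.90, 20.1, 20.6 and 14.1 TPM in male KO mice. In females it had 5.01, 12.1, 12.0 and 11.8 TPM in WT and 0.535, 12.0, 3.47 and 0.695 TPM in KO mice. Female KO replicate 2 stood at the WT level, while KO replicates 1 and 4 were nearly without this transcript. Srebf1-201 had 20.8, 27.9, 30.8 and 21.3 TPM in female WT and 12.1, 30.8, 19.97 and 12.8 TPM in female KO mice. Mlxipl-210 and Srebf1-207 were singled out after their values were seen and are given without a test. Transcripts of one gene share most of their sequence, so their split rests on how ambiguous reads were assigned.

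**Figure D4:**
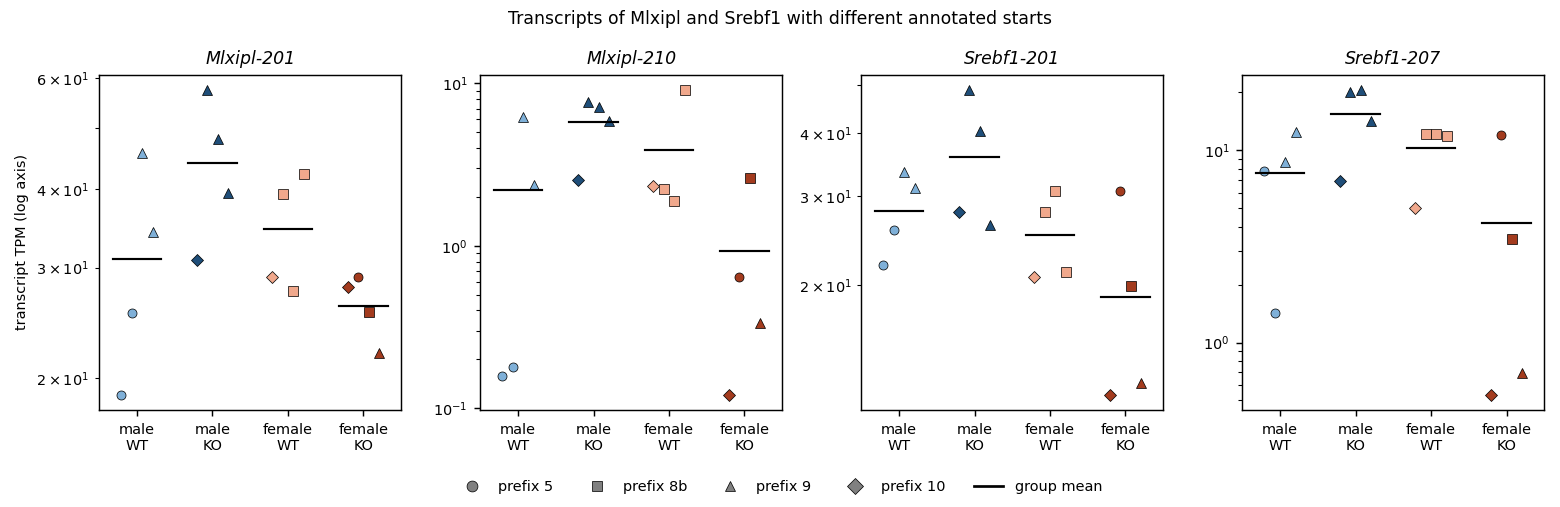
TPM of 2 transcripts each of Mlxipl and Srebf1 in the 16 libraries, on log axes that differ between panels, with bars for group means and marker shapes for the prefix. Mlxipl-210 and Srebf1-207 lie below 1 TPM in female KO replicates 1 and 4, whereas Mlxipl-201 stays between 18.8 and 57.4 TPM.

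The share of the leading transcript in its gene sum was compared between genotypes with an exact two-sided permutation test. Srebf1-201 held 41.7% ± 5.15 (SD) of the Srebf1 TPM in male WT and 37.7% ± 4.40 (SD) in male KO mice (exact p = 0.286), and 39.1% ± 4.63 (SD) in female WT and 38.1% ± 2.57 (SD) in female KO mice (exact p = 0.800). Mlxipl-201 held 26.6% ± 2.62 (SD) of the Mlxipl TPM in male WT and 26.9% ± 1.60 (SD) in male KO mice (exact p = 0.886). It held 25.6% ± 7.06 (SD) in female WT and 18.2% ± 3.53 (SD) in female KO mice (exact p = 0.0857). The Benjamini-Hochberg adjusted values over these 4 exact tests were 0.343 or higher, and the smallest exact p that 4 mice against 4 allow is 0.0286.

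Mice with high Fasn also had high levels of most other enzymes of the pathway. Log2 levels were centred on the mean of each of the 4 groups, so that differences between groups do not enter, and 9 relations with Fasn were computed over 16 libraries. Acaca had Pearson's r = 0.98 (permutation p = 4e-05, adjusted 0.00036) and Spearman's rho = 0.97 (permutation p = 8e-05, adjusted 0.00072). Acly had Pearson's r = 0.96 (permutation p = 0.00016, adjusted 0.00072) and Spearman's rho = 0.96 (permutation p = 0.00024, adjusted 0.00108). Me1 had Pearson's r = 0.81 (permutation p = 0.00095, adjusted 0.00214) and Spearman's rho = 0.78 (permutation p = 0.00354, adjusted 0.00637). These 3 relations were positive in both sexes, with r of 0.993 in males and 0.990 in females for Acaca, 0.998 and 0.937 for Acly, and 0.927 and 0.825 for Me1. Scd2 had Pearson's r = 0.80 (permutation p = 0.0021, adjusted 0.00378) and Spearman's rho = 0.79 (permutation p = 0.00332, adjusted 0.00637). Scd1 had Pearson's r = 0.79 (permutation p = 0.00375, adjusted 0.00562) and Spearman's rho = 0.72 (permutation p = 0.0161, adjusted 0.0234). Elovl6 had Pearson's r = 0.70 (permutation p = 0.00038, adjusted 0.00114) and Spearman's rho = 0.69 (permutation p = 0.00143, adjusted 0.00429). With these, 6 of the 9 passed the adjusted threshold by Pearson's r over all 16 libraries, and within 8 female libraries only Acaca did. The share of all genes that would pass in this way was not computed. Within 8 male libraries all passed but Acacb (adjusted permutation p = 0.0625). Srebf1 had Pearson's r = 0.65 (permutation p = 0.0412, adjusted 0.053) and Spearman's rho = 0.71 (permutation p = 0.0182, adjusted 0.0234). Mlxipl had Pearson's r = 0.34 (permutation p = 0.208, adjusted 0.234) and Spearman's rho = 0.44 (permutation p = 0.0902, adjusted 0.101). Acacb had Pearson's r = 0.28 (permutation p = 0.356, adjusted 0.356) and Spearman's rho = 0.30 (permutation p = 0.329, adjusted 0.329). The libraries farthest from the median in Fasn were female KO replicates 3 and 4. Without them (14 libraries), r was 0.98 for Acaca, 0.95 for Acly, 0.90 for Me1, 0.80 for Scd2, 0.75 for Scd1, 0.88 for Elovl6, 0.69 for Srebf1, 0.66 for Mlxipl and 0.42 for Acacb. The relation of the Mlxipl sum depended on those mice: it passed without them (adjusted permutation p = 0.0315), and its r was 0.90 in males and -0.28 in females. By transcript, and as a description only, Mlxipl-210 had r = 0.78 with Fasn (0.95 in males and 0.67 in females) and Srebf1-207 r = 0.70 (0.72 and 0.69). All levels of a library share its scaling and its mix of cells. Centring on groups also leaves differences between prefixes inside a group. In male WT mice, mean Fasn was 1147 TPM in prefix 5 and 3319 TPM in prefix 9. In male KO mice it was 2073 TPM in the prefix 10 library and 5276 TPM in prefix 9. The part of the prefix in these relations was not tested.

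Acaca and Acly were also among the genes whose centred pattern was most like that of Fasn, out of 7594 genes at a mean TPM of 5 or more. The 5 most alike by Pearson's r were Acaca (0.98), Pygl (0.98), Tkt (0.98), Eno1 (0.96) and Acly (0.96). The other members stood further down, at rank 106 (Me1), 118 (Scd2), 135 (Scd1), 312 (Elovl6), 407 (Srebf1), 1616 (Mlxipl) and 1882 (Acacb). Many genes that are not members were thus more like Fasn than these were. Pygl is a glycogen phosphorylase, Tkt (transketolase) belongs to the pentose phosphate pathway and Eno1 (enolase) to glycolysis. Mean Tkt was 1199 and 1853 TPM in male WT and KO mice and 1533 and 851 TPM in female WT and KO mice, the same order of groups within each sex as for Fasn.

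Proteins and transporters around the pathway followed the same outline. Of 11 listed partners and suppliers of substrate, 10 were tested: 9 were higher in male KO mice (median log2 fold change 0.42) and 9 lower in female KO mice (median -0.62), and none passed the adjusted threshold in either sex. In females, Acss2, which makes acetyl-CoA from acetate, Mid1ip1, which helps acetyl-CoA carboxylase to polymerize, and Pkm, a pyruvate kinase, were lower in KO without overlap. So were 3.19% of all genes. Over 4 mice per group, mean Acss2 was 87.6 ± 18.2 (SD) TPM in female WT and 42.0 ± 22.3 (SD) TPM in female KO mice. Mean Slc25a1, the citrate carrier, was 187 ± 85.0 (SD) and 387 ± 196 (SD) TPM in male WT and KO mice, and 180.5 ± 31.1 (SD) and 107 ± 41.4 (SD) TPM in female WT and KO mice. Mean Thrsp, a partner of Mid1ip1, was 1389 ± 122 (SD) TPM in female WT and 896 ± 439 (SD) TPM in female KO mice. Their log2 fold changes in females were -1.20 ± 0.37 (SE) for Acss2, -0.81 ± 0.28 (SE) for Slc25a1 and -0.77 ± 0.33 (SE) for Thrsp.

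The list of other NADPH-supplying enzymes held G6pdx, Pgd and Idh1, which act in the cytosol, and Me2, Me3 and Nnt of mitochondria. All 5 tested genes of 6 listed were higher in male KO (Me3 not with median-of-ratios scaling or without the mitochondrial genome) and lower in female KO mice, with medians of 0.23 and -0.48 on the log2 scale, and none passed the adjusted threshold. G6pdx and Pgd, both of the oxidative pentose phosphate pathway, were lower in female KO without overlap, as were 3.19% of all genes. Pgd had log2 fold changes of 0.70 ± 0.34 (SE) in males and -0.97 ± 0.29 (SE) in females. Idh1, an isocitrate dehydrogenase, had 0.23 ± 0.13 (SE) and -0.48 ± 0.20 (SE). The mitochondrial malic enzymes lay nearer 0, with 0.16 ± 0.13 (SE) and -0.11 ± 0.16 (SE) for Me2 and 0.06 ± 0.10 (SE) and -0.18 ± 0.20 (SE) for Me3, and in males neither was far from the median of all genes (0.16). Nnt lay under the TPM minimum. Idh1, Me2 and Me3 were named after their values were seen.

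Elongases and desaturases outside the core set did not share the opposite directions. Of 12 listed, 9 were tested, and 8 were higher in KO in each sex. The medians were 0.15 in males and 0.35 in females, against 0.16 and 0.10 over all genes tested. Elovl1, an elongase of very long chains, was higher in female KO mice without overlap (log2 fold change 0.76 ± 0.21 (SE)), as were 4.89% of all genes. Tecr, the last enzyme of each elongation round, was higher in male KO mice without overlap (log2 fold change 0.32 ± 0.13 (SE)), as were 9.55% of all genes. Averaged over the sexes, Fads2, a desaturase of polyunsaturated fatty acids, was higher in KO by 0.44 ± 0.11 (SE) on the log2 scale and passed the adjusted threshold in limma (adjusted p = 0.0472). That call was lost with prefix as a covariate (adjusted p = 0.192) and without any 1 of 11 of the 16 libraries (adjusted p up to 0.102).

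Of the genes that regulate the 2 factors, all 14 listed were tested, and none passed. Their medians were 0.19 in males and 0.02 in females, near those of all genes, though single genes lay farther from 0. At an unadjusted p under 0.05 in limma, 2 were higher in male KO mice and 1 in female KO mice. Of all genes, 17.7% and 11.6% were higher at that level. None of the regulators was lower at that level in either sex. Insig1, which holds SREBP in the endoplasmic reticulum and is itself a SREBP target, had a mean of 61.5 ± 9.73 (SD) and 56.4 ± 13.2 (SD) TPM in male WT and KO mice, and of 64.9 ± 12.3 (SD) and 59.3 ± 8.29 (SD) TPM in female WT and KO mice. Mlx, the partner of ChREBP, had log2 fold changes of 0.14 ± 0.10 (SE) and -0.06 ± 0.15 (SE) in males and females, Srebf2 0.35 ± 0.14 (SE) and -0.04 ± 0.14 (SE), and Nr1h3 (LXR-alpha) 0.17 ± 0.13 (SE) and 0.51 ± 0.21 (SE). Insig2 was higher in male KO mice without overlap (log2 fold change 0.29 ± 0.08 (SE)), as were 9.55% of all genes. Among 6 tested of 7 other listed targets, Gpd1, which makes the glycerol backbone of triglycerides, was lower in female KO without overlap, as were 3.19% of all genes. Its log2 fold changes were 0.64 ± 0.24 (SE) in males and -0.79 ± 0.25 (SE) in females. Of 5 genes of opposing enzymes, including subunits of AMP-activated kinase, none passed, and the medians were 0.12 and -0.14.

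Markers of other cells are given beside these results. All 7 brown adipocyte markers were expressed, and their summed level ranged from 7195 to 10779 and from 7921 to 8817 TPM in male WT and KO mice, and from 5251 to 8569.8 and from 6217 to 10342 TPM in female WT and KO mice. The 6 macrophage markers summed to 32.4 to 63.2 TPM in male WT and 81.2 to 119.9 TPM in male KO mice, without overlap, and to 39.2 to 86.8 and 52.5 to 79.2 TPM in female WT and KO mice. The 5 fibroblast markers summed to 57.6 to 87.6 and 102 to 108 TPM in male WT and KO mice, also without overlap, and to 72.3 to 89.8 and 73.2 to 111 TPM in females. The 4 endothelial markers summed to 107 to 147 TPM in female WT and 172 to 325 TPM in female KO mice, without overlap, and to 113 to 214 and 177 to 205 TPM in males. The 6 skeletal muscle markers ranged from 15.8 to 1591 and from 8.44 to 3659 TPM in male WT and KO mice, and from 1.87 to 1078 and from 5.94 to 3255 TPM in female WT and KO mice, so muscle RNA was present in some libraries of every group. White adipocyte markers, with 5 of 6 at a mean of 1 TPM or more, spanned 539 to 877 TPM over all libraries, mostly from Adipoq. By their means, Lep and Mest were higher in KO males and lower in KO females than in WT mice. Adipoq and Retn did the reverse, and Nnat was lower and Agt higher in KO mice of both sexes. Mean Lep was 54.9 and 101 TPM in male WT and KO mice and 37.5 and 12.4 TPM in female ones. Mean Retn was 26.8 and 11.9 TPM, and 45.6 and 60.5 TPM, in the same order. Both overlapped in each sex. Schwann cell and nerve markers (4 of 5) spanned 27.2 to 74.7 TPM and liver markers (3 of 4) 0.958 to 24.4 TPM. Markers of mammary epithelium (0 of 9 at 1 TPM or more) reached at most 8.54 TPM, sebaceous and skin markers (1 of 5, Awat1 at 0 in all libraries) 4.0 TPM and lymphocyte markers (1 of 4) 4.12 TPM. The part of these cells in the lipogenic differences was not tested.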

How the data were processed

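Stranded mRNA libraries of BAT were sequenced as single-end reads. The authors quantified transcripts with kallisto 0.46.2 (build GRCm39, both per the submitters' processing notes) and deposited TPM per transcript. No counts were used, so the authors' DESeq2 test was not run. Identifiers of 135051 transcripts matched GENCODE mouse release 21 without their version, 2387 did not, and TPM were summed per gene identifier. Where a symbol had several gene identifiers, the one with the highest mean was kept, which left 49066 symbols of 49130 identifiers. Gene coordinates are not given, because that release is on GRCm38. The promoters carry RefSeq GRCm38.p6 positions.

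Genes averaging 1 TPM or more were fitted as log2(TPM + 0.5) in limma 3.58.1 (R 4.3.3, eBayes with trend, Benjamini-Hochberg over all genes tested), after the procedure was tested on simulated data. Fold changes on this scale understate those of genes with low TPM. Transcript shares were compared by exact permutation, and relations by 100000 permutations within groups (exact for subsets). Samples were grouped by their labels. All replicates are labelled as separate samples, and p-values measure only the spread between them. The members and lists were chosen with earlier results of these data known. Named genes are the members, 7 genes named always, listed genes that passed or did not overlap (at most 4 per list and comparison), and the 5 most like Fasn. Alternatives were other pseudocounts (1 and 0.1), TPM minimums, scalings and samples, no trend, the replicate block and the prefix.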

Additional observations from a re-analysis of the deposited data

Results flagged for a closer look

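In male KO mice, Scd1 in replicate 1 (2097 TPM) stood far from the other 3, and so did Mlxipl-210 in female WT replicate 4 (9.13 TPM) and Srebf1-207 in female WT replicate 1 (5.01 TPM) within their groups of 4. Of 48 groups of values screened in this way, 3 were noted, and chance alone gives about 1 in 20. Male KO replicate 1 and female WT replicate 1 both carry prefix 10.

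Outside the genes tested, the transcript ENSMUST00000240377, which GENCODE mouse release 21 does not hold, took 16.5% of the TPM of female WT replicate 4, the largest share of any transcript in that library. TPM of the other genes of that library are lower by construction. Its Fasn (3879.8 TPM) was nevertheless the highest of the female WT mice.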

How the results depend on the processing

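Under all 260 alternative values, the members' KO effect stayed lower in females than in males and past no adjusted threshold. Direction and call also stayed the same in 197 of 200 values of the male and 193 of 200 of the female comparison, and the rest, of Acacb and Mlxipl, changed sign near 0. Within each sex, the prefix covariate and the prefix subset gave the members the same log2 fold changes, so they are not separate checks. Genes called for the male KO numbered 1, but 2 with pseudocount 0.1, 0 with no TPM minimum, 7 with median-of-ratios scaling, 12 with the mitochondrial genome left out, 0 with a replicate block, 6 with prefix as a covariate, 38 with all 16 libraries fitted together, 18 with protein-coding transcripts only and 9 with prefix 9 libraries only, and 0 to 5 when each library was left out. Genes called for the female KO numbered 0, but 1 with a replicate block, 8 with prefix as a covariate, 5 with all 16 libraries fitted together and 8 with prefix 8b and 10 libraries only and prefix as a covariate, and 0 to 9 when each library was left out. Genes called for the sex difference of the KO effect numbered 0, but 1 with no trend, and 0 to 3 when each library was left out. Genes called for the mean KO effect numbered 358, but 54 with no TPM minimum, 177 with minimum mean TPM of 5, 60 with a replicate block, 12 with prefix as a covariate and 719 with protein-coding transcripts only, and 31 to 1055 when each library was left out. Genes called for the WT sex comparison numbered 8, but 3 with minimum mean TPM of 5, 547 with both genotypes, 93 with both genotypes and prefix as a covariate and 4 with protein-coding transcripts only, and 5 to 11 when each library was left out. Median-of-ratios scaling moved the median over all genes from 0.16 to 0.00059 in males and from 0.10 to 0.0046 in females (log2). Changes of sign were as follows, in log2 units. For the male KO, median-of-ratios scaling gave -0.11 for Acacb, -0.031 for Mlx, -0.11 for Me3, and the mitochondrial genome left out gave -0.044 for Acacb, -0.041 for Me3, and protein-coding transcripts only gave -0.015 for Mlx. For the female KO, median-of-ratios scaling gave -0.014 for Mlxipl, and prefix as a covariate gave -0.013 for Mlxipl, and protein-coding transcripts only gave -0.065 for Mlxipl, 0.27 for Mlx, 0.046 for Srebf2, and prefix 8b and 10 libraries only and prefix as a covariate gave -0.013 for Mlxipl. For the mean KO effect, median-of-ratios scaling gave -0.14 for Acacb, -0.053 for Scd1, -0.14 for Srebf1, and the mitochondrial genome left out gave -0.073 for Acacb, -0.072 for Srebf1, and prefix as a covariate gave -0.11 for Acacb, 0.024 for Scd2, and protein-coding transcripts only gave -0.25 for Acacb. For the WT sex comparison, median-of-ratios scaling gave 0.050 for Scd1, and both genotypes gave -1.03 for Acly, -0.56 for Acaca, -0.67 for Fasn, -0.69 for Scd2, -0.67 for Me1, and both genotypes and prefix as a covariate gave -1.18 for Acly, -0.58 for Acaca, -0.83 for Fasn, -0.66 for Scd2, -0.36 for Me1. In female libraries alone 1 of the 9 relations passed instead of 6, with r of -0.028 for Acacb and -0.28 for Mlxipl. Over single libraries left out, values whose sign changed ran in the male KO Acacb from -0.013 to 0.19, in the female KO Acacb from -0.16 to 0.036, Me2 from -0.17 to 0.00099, Mlx from -0.16 to 0.024, Mlxipl from -0.013 to 0.24, Srebf2 from -0.094 to 0.072, in the mean KO effect Acacb from -0.047 to 0.066, Fasn from -0.45 to 0.066, Me1 from -0.13 to 0.19, Scd1 from -0.091 to 0.30, Scd2 from -0.20 to 0.14, Srebf1 from -0.15 to 0.088, in the WT sex comparison Scd1 from -0.36 to 0.41, Srebf1 from -0.16 to 0.079. Leaving out single libraries moved the KO minus WT difference in leading transcript share (percentage points) of Mlxipl in females from -9.12 to -3.94, Mlxipl in males from -0.479 to 1.19 and Srebf1 in females from -3.05 to 0.685. The female Mlxipl difference passed only without female WT replicate 1 (exact permutation p = 0.0286). Fads2 lost its call with no TPM minimum (adjusted p = 0.111), median-of-ratios scaling (0.0501), the replicate block (0.0813) and the prefix covariate (0.192). The fewest mean KO effect calls came without male KO replicate 3 and the most without male WT replicate 2. The causes of these changes were not tested. Replicate numbers were not taken to pair the samples: over genes, deviations of same-numbered WT and KO libraries correlated by -0.08 to 0.35 in males and -0.12 to 0.15 in females, and the block changed no call of a member. Protein-coding sums and the prefix 9, 8b and 10 subsets were added after the data were seen. TPM hide the number of reads, so no limit of detection can be given.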
